A study of Hordeum vulgare with 18 samples.

Results

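The genes described here are 100 transcripts of the barley (Hordeum vulgare) flag leaf whose mean level fell through grain filling. They fell over both weekly intervals in both lines of the study, and were ranked by the smallest of these falls, not by how even the falls were. They were taken from 13626 genes of the deposited table, of which 7152 reached a mean of at least 20 normalized counts in some group and could be ranked. Normalized counts are the authors' values, raw counts divided by 1 size factor for each library. For each gene, the log2 fall in group mean (with 5 added) was taken from 7 to 14 days and from 14 to 21 days in each line, the smallest of these 4 falls was its score, and the 100 highest scores were kept. Of the 7152 genes, 1172 fell in all 4 intervals. The score ran from 2.62 for the first gene, through a median of 0.77, to 0.61 for the last. The fall with age is therefore how the genes were found, and it is given below as a description with no test.

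The libraries came from pooled flag leaves, at least 10 in each sample, harvested at 7, 14 and 21 days post anthesis. The line 10_11 gave 3 libraries at each day, and the cultivar Karl gave 3 libraries at each day. As background, 10_11 is near-isogenic to Karl and differs in a segment of chromosome 6 linked to grain protein content. Both lines shared a glasshouse and the same supply of fertilizer and nitrate. Libraries were made with MARS-seq, which sequences a tag from the 3' end of each transcript, so counts of different genes can be set side by side without a correction for length. The labels call the samples independent without tying them to pots or plants, so the tests below reflect the variation among pools, which may be partly technical.

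The flag leaf is the last leaf formed below the ear. In cereals it supplies much of the grain's carbon and, as it senesces, breaks down chloroplast and other proteins and exports the nitrogen. Transcripts for photosynthesis, chlorophyll synthesis and protein synthesis generally decline as this proceeds, while those for proteases, transporters and regulators of senescence increase. The deposited table names genes by identifier only, and 0 of its identifiers matched the reference gene table used here. The members are therefore described by level, timing, line and position, and no function is given to any of them. For the same reason the tissue label was not checked against marker genes, and lists of genes chosen by function were not applied.

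Total counts were 353982 to 947762 in the 7 d libraries and 1058777 to 3231258 in all later ones, so every fall from 7 d also crosses a difference in depth. In both lines the replicates are numbered at 7 d and lettered at 14 and 21 d. What this change of label marks is not known here, and a difference in handling cannot be told apart from age. The library labelled 10_11 14 d replicate C lay near the Karl levels for some members called between the lines, but not for all, as given below. The rule for the members left it out, and so does each value below unless it is named, which leaves 2 libraries for 10_11 at 14 d. All 100 members were detected at 7 d in 4 of 6 libraries, and 99 in the others. At 21 d, 88 to 95 members had at least 1 count in the 10_11 libraries and 92 to 97 in the Karl libraries.

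Together the 100 genes took up a large part of all counts at 7 d and little at 21 d. In 10_11 their share of the library was 10.6% ± 0.818 (SD, n = 3) at 7 d, 5.02% ± 0.583 (SD, n = 2) at 14 d and 1.14% ± 0.388 (SD, n = 3) at 21 d. In Karl, with 3 libraries a day, the share was 9.87% ± 1.02 (SD) at 7 d, 4.04% ± 0.333 at 14 d and 2.03% ± 0.680 at 21 d. The shares of successive days did not overlap in either line. The library labelled 10_11 14 d replicate C held 3.91%, below the 4.61% and 5.44% of the other 10_11 libraries of that day and inside the Karl range of 3.69% to 4.35%. In bulk leaf RNA, less RNA for these genes in each cell cannot be told apart from fewer cells that express them.

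**Figure D1:**
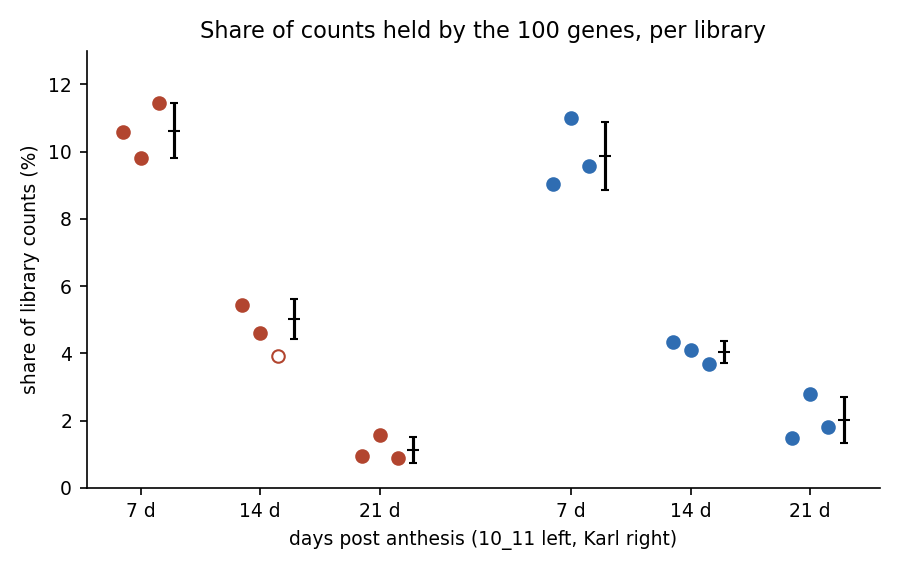
Share of each library's raw counts (vertical axis, percent) held by the 100 genes, by day post anthesis, with 10_11 left and Karl right. Each point is 1 library, black bars give the mean ± SD, and the open circle is the library labelled 10_11 14 d replicate C, left out of the mean. Shares lie at 9.02% to 11.5% at 7 d, at 3.69% to 5.44% at 14 d and at 0.888% to 2.79% at 21 d.

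The depth of the fall varied widely among the members. In 10_11 the median member kept 46.3% of its 7 d level at 14 d and 10.5% at 21 d, with a range at 21 d of 0% to 30.4%. In Karl the median member kept 37.9% at 14 d and 16.5% at 21 d, with a range of 0% to 38.6%. At 21 d, 47 members in 10_11 and 37 in Karl were under 10% of their 7 d level, and 93 and 82 were under 25%. Levels at 7 d, averaged over the lines, spanned 21.9 to 23632 normalized counts with a median of 242, against a median of 40.7 for the 7152 ranked genes. The rule favours a high level at 7 d, since 2 successive falls need a level to fall from.

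First by the score, and among the 5 members with the largest fall, was HORVU2Hr1G119090 on chromosome 2. In 10_11 it had 854, 617 and 563 normalized counts at 7 d, 170 and 42.9 at 14 d, and 4.44, 0 and 0 at 21 d. In Karl it had 722, 696 and 1023 at 7 d, 176, 42.0 and 47.8 at 14 d, and 1.56, 5.33 and 3.46 at 21 d. No library of a later day reached one of an earlier day in either line. The values at 21 d rest on 4 raw counts in 10_11 and 19 in Karl over 3 libraries, near the limit of detection.

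HORVU7Hr1G058120 came second and was far more abundant. In 10_11 it had 17052, 9223 and 11597 normalized counts at 7 d, 2742 and 2253 at 14 d, and 18.9, 191 and 19.6 at 21 d. Karl libraries had 8411, 10142 and 12470 at 7 d, 1162, 2118 and 1380 at 14 d, and 108, 676 and 194 at 21 d. Replicate B was the highest 21 d library in both lines, about 10 times the others in 10_11, and still below every 14 d library of its line. On average 0.606% of the 7 d level remained at 21 d in 10_11 and 3.15% in Karl.

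HORVU5Hr1G109260 ranked next. In 10_11 it had 1598, 1067 and 1077 normalized counts at 7 d, 249 and 222 at 14 d, and 7.77, 15.5 and 1.51 at 21 d. The Karl values were 568, 464 and 388 at 7 d, 16.4, 32.0 and 23.9 at 14 d, and 0, 6.67 and 6.92 at 21 d. All 10_11 libraries lay above all Karl libraries at 7 d and at 14 d, and the lines overlapped at 21 d. Its neighbour by identifier, HORVU5Hr1G109250, is also a member and is described with the line differences below.

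**Figure D2:**
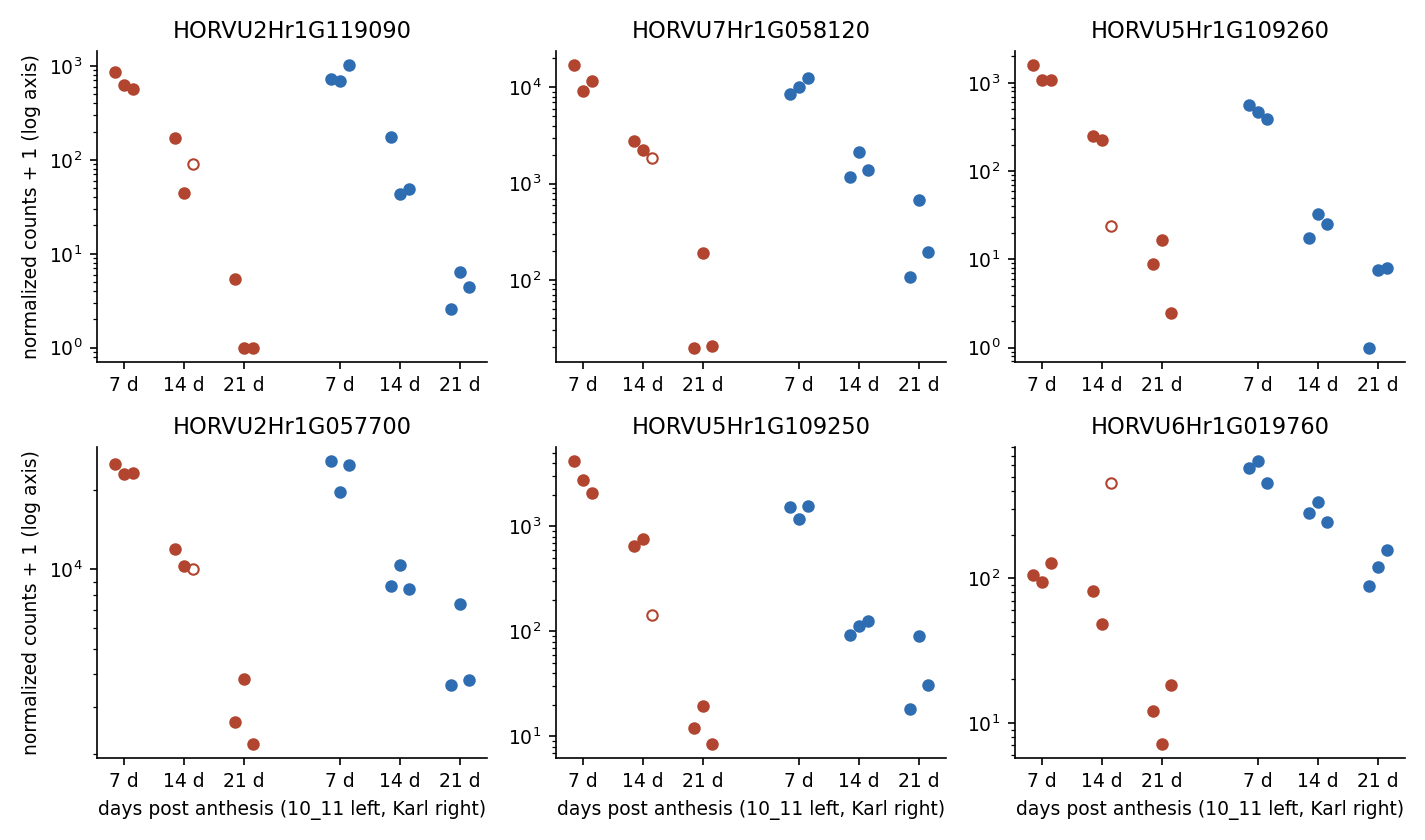
Normalized counts plus 1 (log axis) of 6 members in every library, by day post anthesis, with 10_11 left in red and Karl right in blue. Open circles are the library labelled 10_11 14 d replicate C. HORVU2Hr1G119090, HORVU7Hr1G058120 and HORVU5Hr1G109260 have the highest scores and HORVU2Hr1G057700 the highest level at 7 d. For HORVU5Hr1G109260, HORVU5Hr1G109250 and HORVU6Hr1G019760 the open circle lies apart from the other 10_11 libraries of 14 d.

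Members 4 to 10 by the score were HORVU0Hr1G022690, HORVU2Hr1G073370, HORVU5Hr1G067490, HORVU4Hr1G083930, HORVU7Hr1G122470, HORVU4Hr1G022630 and HORVU3Hr1G014590. They kept 0.367% to 12.2% of their 7 d level at 21 d in 10_11 and 0.687% to 16.7% in Karl. HORVU4Hr1G083930 stood higher in 10_11, with 298, 216 and 286 normalized counts at 7 d against 131, 49.6 and 119 in Karl, and the lines did not overlap at that day. HORVU7Hr1G122470 had 56.7 and 23.1 normalized counts at 14 d in 10_11 against 11.9, 9.95 and 4.78 in Karl. At 21 d it was at 0 in 1 library of 10_11 and in 2 of Karl.

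The 5 most abundant members at 7 d were HORVU2Hr1G057700, HORVU5Hr1G082420, HORVU2Hr1G040780, HORVU2Hr1G073370 and HORVU3Hr1G014590. They held 4.96% to 6.27% of the counts of 10_11 7 d libraries and 4.53% to 5.95% of Karl 7 d libraries, about as much as the other 95 members together. At 21 d they held 0.411% to 0.809% in 10_11 and 0.733% to 1.62% in Karl. HORVU2Hr1G057700 had normalized counts in 10_11 of 23815 ± 1201, 11132 ± 1150 and 2887 ± 851 on the 3 days (SD, n = 3, 2 and 3). Its Karl levels were 23448 ± 3287, 9189 ± 1090 and 4935 ± 2106 on those days (SD, n = 3 each). Among these 5, HORVU2Hr1G040780 had the Karl level at 14 d closest in ratio to that at 21 d. Its levels were 16348 ± 2902, 4760 ± 587 and 715 ± 357 normalized counts in 10_11 (SD, n = 3, 2 and 3) and 14004 ± 656, 1914 ± 502 and 1232 ± 519 in Karl (SD, n = 3 each) on the 3 days.

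Because the members were ranked by group means, single libraries need not follow the means. No library of a later day reached one of an earlier day in all 4 intervals for 53 members, against 1.38% of the 7152 ranked genes. By interval, 87 members had no overlap from 7 to 14 d in 10_11 (17% of ranked genes) and 94 from 14 to 21 d (22.4%), and in Karl 80 (17%) and 76 (11.2%). From 7 to 21 d, 99 members in 10_11 (20.2%) and 98 in Karl (20.1%) did not overlap. In edgeR's quasi-likelihood test, fitted to 10382 genes and called at an adjusted p under 0.05 (Benjamini-Hochberg), 7 members were lower at 14 d than at 7 d in 10_11, where 0.308% of tested genes were, and 61 in Karl (4.91%). From 14 to 21 d 89 members were lower in 10_11 (7.95%) and 18 in Karl (0.578%), and from 7 to 21 d 100 in 10_11 (13.6%) and 98 in Karl (10.6%). With counts thinned to the smallest library, 97 members were tested, of which 96 in 10_11 and 93 in Karl were lower at 21 d than at 7 d, where 15.9% and 10.7% of tested genes were. Since the rule used these contrasts, the counts only show how many of the chosen falls pass, and each of the 4 counts over 1 interval shifts by over 1.5 times with single libraries. In parentheses below is the share of all tested genes called the same way. The count of 18 was 0 when replicate A (0%) or replicate C (0.00995%) of Karl at 21 d was left out. It was 6 without Karl 14 d replicate A (0.0897%) and 9 without replicate C of that group (0.169%). Without 10_11 7 d replicate 1 it was 10 (0.290%). It was 28 without Karl 21 d replicate B (0.784%) and 30 without Karl 7 d replicate 2 (0.881%). Without 10_11 21 d replicate B it was 36 (1.33%). The count of 7 was 3 or 4 without any 1 of the 10_11 7 d libraries (0.0869% to 0.232%). It was 12 without Karl 7 d replicate 2 (0.474%) or Karl 21 d replicate B (0.437%). Without 10_11 21 d replicate B it was 14 (0.571%), and 26 when replicate C of 10_11 at 14 d was added (1.26%). Without 10_11 14 d replicate A or B, which leaves 1 library, the members' median log2 fold change was -1.24 or -0.90, in place of -1.09. The count of 61 was 36 without Karl 14 d replicate C (2.29%). From 14 to 21 d in 10_11 the members' median log2 fold change was -1.87 without 10_11 14 d replicate A, in place of -2.12.

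At the edge of the selection the margin was small. Members 99 and 100, HORVU0Hr1G036870 and HORVU6Hr1G071520, had scores of 0.614 and 0.613. The first genes outside, HORVU3Hr1G015850 and HORVU2Hr1G126230, had 0.610 and 0.609, and both fell in all 4 intervals too. HORVU0Hr1G036870 is a member through its means alone. In 10_11 it had 86.8, 6111 and 0 normalized counts at 7 d, 1125 and 13.9 at 14 d, and 5.55, 19.6 and 6.02 at 21 d, and in Karl 3779, 482 and 5139 at 7 d, 1343, 29.3 and 26.3 at 14 d, and 26.5, 14.2 and 868 at 21 d. Libraries of 1 group lay far apart, and the days overlapped in both lines.

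By group means, the fall lay earlier in Karl than in 10_11 for most members, as for most genes that fell in all 4 intervals. In 10_11 19 members had over 50% of their log2 fall before 14 d, with a median share of 37.5%, while in Karl 70 did, with a median of 56.6%. This order of the lines had been seen in the same libraries before the members were chosen. The early share was larger in Karl for 84 of the 100 members, against 75.2% of the 1172 genes that fell in all 4 intervals. The number was 79 when replicate C of 10_11 at 14 d was added and 67 without 10_11 14 d replicate A. For a line difference in the change from 7 to 14 d, edgeR called 0 members, where 0.00963% of tested genes were called. Averaged over the lines, the members with the latest fall were HORVU5Hr1G053950 and HORVU2Hr1G105930, with 32.1% and 29.7% of the fall before 14 d in 10_11 and 28.2% and 32.4% in Karl. HORVU5Hr1G053950 averaged 348 ± 87.6, 147 ± 106 and 20.8 ± 12 normalized counts on the 3 days in 10_11 (SD, n = 3, 2 and 3). Its Karl levels were 323 ± 77.7, 162 ± 49.4 and 24.6 ± 9.53 (SD, n = 3 each). The earliest falls were those of HORVU5Hr1G067530, with 74.4% of the fall before 14 d in 10_11 and 61.5% in Karl, and of HORVU5Hr1G096360, whose level at 7 d came mainly from 1 library in each line.

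**Figure D3:**
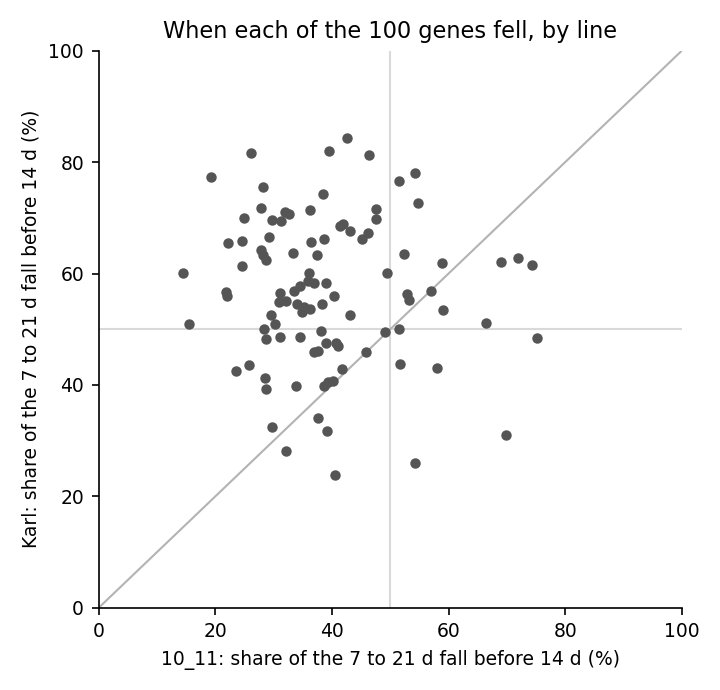
Share of each member's log2 fall from 7 to 21 d that lay before 14 d, in 10_11 (horizontal axis, percent) and Karl (vertical axis, percent). Each point is 1 of the 100 genes, the diagonal marks equal shares and the grey lines mark 50%. 84 points lie above the diagonal.

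The rule did not use the difference between the lines at a given day, but it used the same group means. The values below, from the same edgeR fit, are therefore not independent of the selection, and nothing is read from their contrast with all tested genes, most of which do not fall. Positive log2 fold changes stand for higher levels in 10_11. At 7 d the members' median log2 fold change was 0.08, against -0.01 for all tested genes, and 64 of the 100 members were on the side of 10_11, against 48.7% of tested genes. The median was -0.01 with 48 members without 10_11 7 d replicate 3, 0.14 with 67 without 10_11 7 d replicate 2, 0.18 with 57 without Karl 7 d replicate 2 and 0.04 with 56 without Karl 7 d replicate 3. At 7 d 1 member was called, where 0.414% of tested genes were. At 14 d the median was 0.36 against -0.01, and 77 members were on the side of 10_11, against 49.5% of tested genes. It was 0.18 with 58 members without 10_11 14 d replicate A, and 0.49 with 88 without 10_11 14 d replicate B. At that day 5 members were called higher in 10_11 and 1 lower, where 0.973% and 2.02% of tested genes were, 3.00% in all. At 21 d the median was -0.56 against 0.00, 21 members were on the side of 10_11 against 49.6% of tested genes, and 0 were called higher and 2 lower, where 0.925% and 0.491% of tested genes were, 1.42% in all. Without Karl 21 d replicate B the median was -0.30, with 29 members on the side of 10_11. Without overlap, 39 members were higher in both 10_11 14 d libraries than in any Karl 14 d library (20.2% of ranked genes) and 5 lower (21.7%). At 21 d 3 were higher without overlap (12.3%) and 16 lower (7.90%), and at 7 d 6 were higher (4.63%) and 3 lower (4.77%). When replicate C of 10_11 at 14 d was added, the median at 14 d was 0.24. Then edgeR called 0 members at 14 d, where 0.0501% of tested genes were called, with 19 members and 13.5% of tested genes at an unadjusted p under 0.05. DESeq2 on the 17 libraries called 12, where it called 4.31% of tested genes.

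The number of members called at 14 d was 6 with all 17 libraries. It was 3 without Karl 14 d replicate C, where 1.13% of tested genes were called, against 3.00% with all 17 libraries. It was 10 without Karl 7 d replicate 2 (3.28%) and 15 without 10_11 21 d replicate B (5.64%). Without either 10_11 14 d library that group has 1 library, and the medians are those given above. The number called at 21 d was 2 with all 17 libraries and 14 without 10_11 21 d replicate B, a setting in which 3.59% of tested genes were called. It was 1 without 10_11 7 d replicate 2, 10_11 21 d replicate A or C, or Karl 7 d replicate 1 or 3. The number was also 1 without Karl 14 d replicate C or Karl 21 d replicate B. In these settings 0.615% to 1.49% of tested genes were called, against 1.42% with all 17 libraries.

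**Figure D4:**
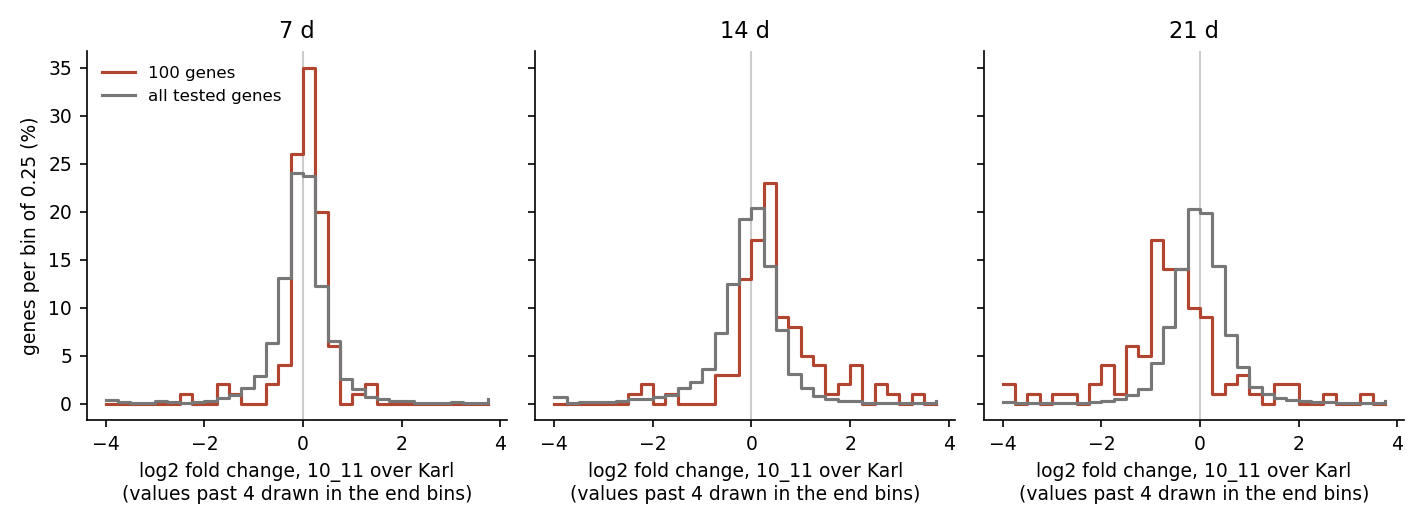
Distribution of the log2 fold change of 10_11 over Karl (horizontal axis) at 7, 14 and 21 d, as percent of genes in bins of 0.25, for the 100 genes (red) and all 10382 tested genes (grey), with values past 4 drawn in the end bins. The members' median is 0.08 at 7 d, 0.36 at 14 d and -0.56 at 21 d, and it is -0.01 without 10_11 7 d replicate 3, 0.18 without 10_11 14 d replicate A and -0.30 without Karl 21 d replicate B.

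HORVU6Hr1G019760, on chromosome 6, was the member that differed between the lines at every day. In 10_11 it had 104, 92.6 and 126 normalized counts at 7 d, 80.5 and 46.9 at 14 d, and 11.1, 6.19 and 17.3 at 21 d. In Karl it had 573, 645 and 450 at 7 d, 282, 333 and 244 at 14 d, and 86.6, 118 and 155 at 21 d. Both lines fell, and every 10_11 library lay below every Karl library of the same day. The log2 ratio of 10_11 to Karl was -2.39 ± 0.30 (SE) at 7 d, -2.15 ± 0.33 at 14 d and -3.34 ± 0.34 at 21 d, with adjusted p-values of 0.000257, 0.00127 and 1.138e-05 by edgeR. Leaving out 1 library kept it called at 7 d and 21 d, with edgeR adjusted p of at most 0.0066 and 0.000185, and at 14 d in 16 of 17 cases, with a value of 0.0639 without 10_11 14 d replicate B. The library labelled 10_11 14 d replicate C held 454 normalized counts, above all 14 d libraries of both lines. When it was added the adjusted p was 0.212, 0.704 and 0.0162 at the 3 days.

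The neighbours HORVU5Hr1G109250 and HORVU5Hr1G109260, on chromosome 5, were both higher in 10_11 at 14 d. HORVU5Hr1G109250 had 4218, 2786 and 2073 normalized counts at 7 d, 657 and 751 at 14 d, and 11.1, 18.6 and 7.53 at 21 d in 10_11. In Karl it had 1535, 1174 and 1562 at 7 d, 91.2, 111 and 125 at 14 d, and 17.2, 89.3 and 29.7 at 21 d. At 14 d its log2 ratio of 10_11 to Karl was 2.70 ± 0.45 (SE), with an adjusted p of 0.00259 by edgeR. That of HORVU5Hr1G109260 was 3.29 ± 0.49 (SE), with an adjusted p of 0.000957 by edgeR, and both stayed called without any 1 of the 17 libraries. At 21 d the ratio of HORVU5Hr1G109250 was -1.96 ± 0.50 (SE), with an adjusted p of 0.0591 by edgeR. Its log2 change from 14 to 21 d in 10_11 minus that in Karl was -4.66 ± 0.67 (SE), with an adjusted p of 0.00611 by edgeR. Without 10_11 14 d replicate B that p was 0.0581. It was the 1 member called by that test, where 0.0867% of tested genes were. The number was 2 without 10_11 21 d replicate A (0.204% of tested genes) or Karl 7 d replicate 2 (0.116%). It was 3 without Karl 14 d replicate B (0.377%) and 8 without 10_11 21 d replicate B (0.426%). For the change from 7 to 14 d edgeR called 0 members, where 0.00963% of tested genes were, with 13 members and 7.19% of tested genes at an unadjusted p under 0.05. By DESeq2 the number of members called was also 0. The rule used the changes that this test compares, so the test is not independent of it. The library labelled 10_11 14 d replicate C held 141 and 23.2 normalized counts of the pair, near the Karl levels, and when it was added neither was called at 14 d (adjusted p of 0.104 and 0.102 by edgeR). The difference of changes then had an adjusted p of 0.138. Neighbouring genes can be close copies whose tags the authors' counting could split, so the pair may not be independent.

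Of the other members called at 14 d, HORVU7Hr1G072670 had 205 and 312 normalized counts in 10_11 against 35.1, 53.6 and 43.8 in Karl, a log2 ratio of 2.55 ± 0.58 (SE, adjusted p of 0.0233 by edgeR). HORVU3Hr1G083470 had 845 and 817 in 10_11 against 351, 224 and 268 in Karl, a log2 ratio of 1.57 ± 0.41 (SE, adjusted p of 0.0477 by edgeR). HORVU7Hr1G040380 had 28.9 and 15.8 in 10_11 against 4.53, 6.08 and 3.98 in Karl, a log2 ratio of 2.20 ± 0.54 (SE, adjusted p of 0.0396 by edgeR). The groups did not overlap in any of the 3, but their calls held in 13, 7 and 10 of the 17 cases with 1 library left out. All 3 were lost without 10_11 14 d replicate A or B and without Karl 14 d replicate A or C. HORVU3Hr1G083470 was also lost without Karl 14 d replicate B, 10_11 7 d replicate 1 or 2, 10_11 21 d replicate C, Karl 7 d replicate 3 or Karl 21 d replicate A, and HORVU7Hr1G040380 without Karl 14 d replicate B, Karl 7 d replicate 1 or Karl 21 d replicate A. At 21 d HORVU5Hr1G082420 was lower in 10_11, with 821, 1701 and 626 normalized counts against 1732, 4886 and 2544 in Karl, a log2 ratio of -1.57 ± 0.37 (SE, adjusted p of 0.0374 by edgeR), held in 9 of the 17 cases. It was lost without 10_11 7 d replicate 2, 10_11 14 d replicate B, 10_11 21 d replicate A or C, Karl 7 d replicate 1 or 3, Karl 14 d replicate C or Karl 21 d replicate B.

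The library labelled 10_11 14 d replicate C is the one library whose values did not choose the members. It lay below all 10_11 7 d libraries and above all 10_11 21 d libraries for 81 of the 100 members, and between the Karl 7 d and Karl 21 d libraries for 83. Those bounds were set by the selection, and among the 7152 ranked genes, most of which did not fall, the shares were 8.74% and 8.25%. It was below both other 10_11 14 d libraries for 57 members, against 35.6% of ranked genes, and above both for 14, against 36.8%. On the log2 scale it was closer to the Karl 14 d mean than to the mean of the other 10_11 14 d libraries for 71 members, against 54.4% of ranked genes. The 14 d means of both lines entered the score as well. These counts are thus not independent of the selection, and nothing is read from their contrast with ranked genes.

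Replicates of 1 group also differed in sets of members. At 7 d, 10_11 replicate 3 and Karl replicate 2 stood apart for a subset, a grouping made after the values were seen. For 25 members both libraries held over 1.5 times the mean of the other 2 libraries of their group (each value with 5 added), against 4.81% of ranked genes, and for 5 members both held less than that mean divided by 1.5 (6.24%). Across the 100 members the log2 ratios of the 2 libraries to their groups correlated at 0.730 by Pearson's r and 0.769 by Spearman's rho, and at 0.814 and 0.762 without HORVU0Hr1G036870. Across ranked genes these were 0.330 and 0.304, as a description over genes that share these libraries and their scaling. These were the smallest libraries of their groups, with 353982 and 599513 counts. A high 7 d mean also helps a gene into the selection, so the larger share among members is partly set by the rule.

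HORVU3Hr1G014590 shows this subset at high counts. It had 9449, 10137 and 22589 normalized counts in 10_11 at 7 d and 6963, 20843 and 8571 in Karl, so replicate 3 of 10_11 and replicate 2 of Karl were more than 2 times the others. Without both libraries its log2 fall from 7 to 14 d was -0.74 in 10_11 and -0.54 in Karl, in place of -1.26 and -1.18. The rule then no longer kept HORVU3Hr1G014590. HORVU5Hr1G096360 had 7.44, 10.8 and 96.7 in 10_11 at 7 d and 1.68, 78.9 and 0 in Karl, and its fall rests on those libraries. Without both libraries the median log2 fall of the 25 members from 7 to 14 d was -0.67 in place of -1.16 in 10_11 and -0.63 in place of -1.37 in Karl. For the other 75 members it was -1.03 in place of -1.01 in 10_11 and -1.48 in place of -1.34 in Karl. Without them, 2 of the 25 in 10_11 and 5 in Karl had no fall from 7 to 14 d. Of the other 75, 0 in 10_11 and 1 in Karl had none. The rule applied without both libraries kept 9 of the 25 and 65 of the 75. The 25 were defined by high values in these same libraries. A smaller fall and fewer genes kept without them therefore follow from the definition, and nothing is read from the contrast with the other 75.

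**Figure D5:**
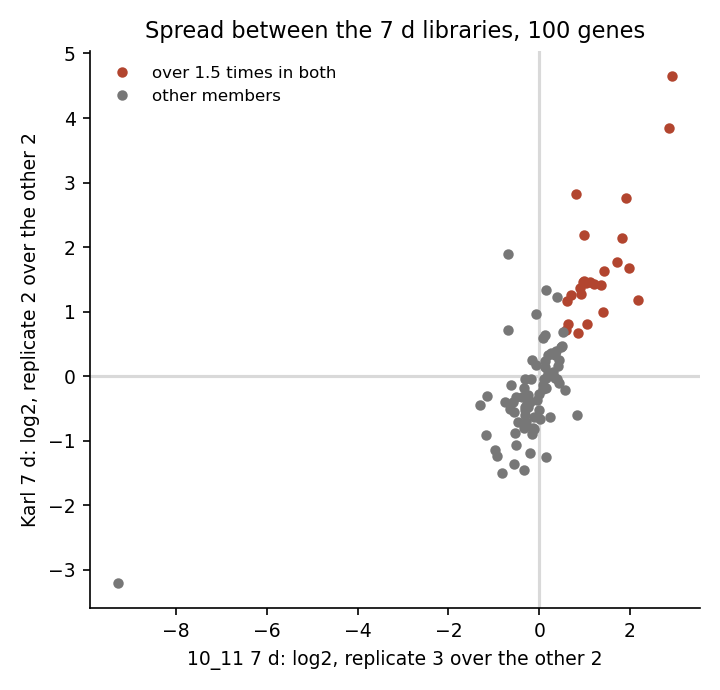
Log2 ratio of 1 library to the mean of the other 2 of its group at 7 d (5 added to each), for 10_11 replicate 3 (horizontal axis) and Karl replicate 2 (vertical axis). Each point is 1 of the 100 genes, red where both ratios are over 1.5-fold (25 genes). The point at the lower left is HORVU0Hr1G036870.

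At 21 d replicate B held the largest share of counts for the members in both lines, 1.58% in 10_11 against 0.938% and 0.888%, and 2.79% in Karl against 1.48% and 1.81%. Replicate B was the highest 21 d library for 45 members in 10_11 and for 74 in Karl, against 45.7% and 39.6% of ranked genes, and in both lines for 40, against 19.8%. In 10_11 the count of members is thus near that of all genes. The median deviation of the members from their group mean in log2 CPM (counts scaled to a common total) was 0.43 in Karl 21 d replicate B, against 0.02 for all tested genes, and 0.12 against 0.04 in 10_11 21 d replicate B. Karl replicate A lay at -0.27 and Karl replicate C at -0.13.

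By identifier, the members were spread over all chromosomes. Chromosome 7 held 21 (2.06% of its ranked genes), chromosome 5 held 19 (1.66%) and chromosome 2 held 16 (1.52%), and chromosome 6 held 8 (0.972%), against 1.40% of all ranked genes. There were 5 pairs of members within 100 of each other in identifier serial, on chromosomes 1, 3, 5, 5 and 7. Such pairs were not counted among the ranked genes, so whether 5 is many or few was not tested. HORVU1Hr1G045520 and HORVU1Hr1G045590 had 114 and 280 normalized counts at 7 d, HORVU3Hr1G011560 and HORVU3Hr1G011620 151 and 267, and HORVU5Hr1G067490 and HORVU5Hr1G067530 92.6 and 211. HORVU7Hr1G040370 and HORVU7Hr1G040380 had 113 and 93.9. The members of this last pair were adjacent in the identifiers, and both were at or near 0 at 21 d. HORVU7Hr1G040370 had 0, 2.06 and 0 normalized counts in 10_11 and 1.56, 5.78 and 4.15 in Karl, and HORVU7Hr1G040380 had 0 raw counts in 10_11 and 7 in Karl over 3 libraries.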

How the data were processed

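The authors deposited 1 table with raw counts per gene and library, per the file headers, and with normalized counts, a signal that equals the raw count divided by 1 size factor per library. Regularized log2 values are also deposited and were not used. The submitters' processing notes name bcl2fastq, cutadapt, STAR 2.4.2a, HTSeq and DESeq2 without their order or settings. No genome build or annotation is given in the sources used here. Nothing states whether tags were collapsed to molecules, so counts may include amplification copies.

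Groups were taken from sample titles. Members were chosen from normalized counts by the rule in the report. Raw counts were tested with edgeR 4.0.16 in R 4.3.3 (filterByExpr by group, TMM, glmQLFit and glmQLFTest, two-sided) on 17 libraries with a mean for every line at every day (11 residual degrees of freedom). All 100 members passed the filter. Adjusted p-values are Benjamini-Hochberg over all tested genes. A standard error is the log2 fold change over the square root of F. The fit was tested on simulated data. Alternatives were DESeq2 1.42.0, its size factors, no filter, all 18 libraries, the compared groups alone, a replicate block, thinned counts and leaving out each library. Log2 CPM used a prior count of 2.

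Named genes were the first 10 by score, of which the first 3 are given in full, those at the edge, the 5 most abundant, those with the largest fall, the earliest and latest falls, close pairs and those called between the lines. Where a count is singled out beyond these, the gene was chosen after its values were seen. The members and lists were chosen with earlier results of these data known.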

Additional observations from a re-analysis of the deposited data

Results flagged for a closer look

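HORVU5Hr1G109250 stood out because the lines' changes from 14 to 21 d were unlike. The log2 change in 10_11 minus that in Karl was -4.655 ± 0.67 (SE), with an adjusted p of 0.00611 by edgeR. The rule for the members used both changes, so this is not independent of it. Without 1 library the adjusted p was 0.000662 to 0.0581, past the threshold in 16 of 17 cases, and when replicate C of 10_11 at 14 d was added it was 0.138. Groups of 3 libraries were not tested for single outlying libraries.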

How the results depend on the processing

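Counts here are of members. The rule chose 82 to 98 of the same 100 genes without 1 library, 80 to 98 under the other pseudocounts, minimums and scaling, 91 when replicate C of 10_11 at 14 d was added, and 74 without 10_11 7 d replicate 3 and Karl 7 d replicate 2 together. The number with an earlier fall in Karl was 67 to 89 without 1 library. In parentheses is the share of all tested genes called the same way. The 1 called between the lines at 7 d (0.414%) was 0 with all 18 libraries (0.0602%), 2 with thinned counts (0.452%) and 2 with the compared groups alone (0.560%). The 6 called at 14 d (3.00%) were 3 without Karl 14 d replicate C (1.13%) and 15 without 10_11 21 d replicate B (5.64%). They were 0 with all 18 libraries (0.0501%), 12 by DESeq2 (4.31%), 3 with a replicate block (1.96%) and 20 with the groups alone (6.41%). Without replicate B of 21 d in both lines they were 16 (6.43%), and without 10_11 7 d replicate 3 and Karl 7 d replicate 2 they were 10 (3.15%). The 2 at 21 d (1.42%) were 1 (0.615% to 1.49%) to 14 (3.59%) without 1 library. They were 9 by DESeq2 (3.13%), 1 of 74 members tested with the groups alone (0.498%), 6 without replicate B of 21 d (1.42%) and 5 without the 7 d pair (1.78%). The 1 with a line difference from 14 to 21 d (0.0867%) was 2 without 10_11 21 d replicate A (0.204%) and 8 without replicate B of that group (0.426%). It was 0 with all 18 libraries (0%), 0 with the groups alone (0%), 10 by DESeq2 (1.54%), 2 with thinned counts (0.0838%) and 6 without replicate B of 21 d in both lines (0.516%). For 7 to 14 d the number was 0 in each setting run, by edgeR and DESeq2, with 13 members and 7.19% of tested genes at an unadjusted p under 0.05 by edgeR.

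The 7 lower in 10_11 from 7 to 14 d (0.308%) were 3 or 4 without any 1 of the 10_11 7 d libraries (0.0869% to 0.232%). They were 14 without 10_11 21 d replicate B (0.571%), 26 with all 18 (1.26%) and 25 by DESeq2 (0.905%). With the groups alone they were 41 (1.83%), and without replicate B of 21 d in both lines 23 (0.789%). From 14 to 21 d the 89 were 49 to 90 without 1 library. In Karl the 61 from 7 to 14 d (4.91%) were 36 to 75 without 1 library, settings in which 2.29% to 6.42% of tested genes were called. The 18 from 14 to 21 d (0.578%) were 0 without Karl 21 d replicate A (0%) or C (0.00995%) and 36 without 10_11 21 d replicate B (1.33%). They were 42 by DESeq2 (1.14%), 10 with a replicate block (0.231%) and 4 with thinned counts (0.134%). Without replicate B of 21 d they were 47 (1.76%), and without the 7 d pair 32 (0.811%). From 7 to 21 d the 100 in 10_11 were 97 to 100 and the 98 in Karl 94 to 99 without 1 library. Thinned counts left 97 members tested, and the groups alone 98 for 7 d, 99 for 14 d and 98 for 10_11 from 7 to 14 d. The cause of these shifts was not tested. Both settings that leave out a pair of libraries were chosen after seeing the data. The log2 fold change of HORVU5Hr1G096360, Karl 21 d against 7 d, was -4.39 to 1.16 without 1 library. It reversed to 1.16 without Karl 7 d replicate 2, alone or together with 10_11 7 d replicate 3.

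Shares of counts without 1 library were 10.2% to 11.0% in 10_11 at 7 d, 4.61% to 5.44% at 14 d and 0.913% to 1.26% at 21 d, and in Karl 9.30% to 10.3%, 3.89% to 4.22% and 1.65% to 2.30%. Over TMM effective totals they were 12.6% in 10_11 and 11.7% in Karl at 7 d and 3.69% in Karl at 14 d.

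The labels do not say that a replicate number marks a shared block. Deviations of same-numbered libraries of the lines correlated at -0.11 to 0.11 at 7 d, 0.23 at 14 d and -0.15 to 0.32 at 21 d. Low counts at 21 d limit folds of the members that fell most.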
